A study of Drosophila melanogaster with 3 samples.

Results

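The SMC complex genes described here were 10 named fly genes, taken by symbol from the Ensembl annotation of build dm6 out of 13968 protein-coding genes in all. They were SMC1, SMC3, vtd, SA and Nipped-B of the cohesin system, SMC2 and glu of condensin, and SMC5, SMC6 and Nse1 of the Smc5/6 complex. SA was listed there under the symbol SA1 and was matched through its synonyms in the RefSeq gene table. For each gene, every point source in the gene body or within 5 kb of it was collected. A point source is the most enriched base of a peak.

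The peaks came from chromatin immunoprecipitation with sequencing (ChIP-seq) of Grauzone, the zinc finger protein made by grau, in whole Drosophila melanogaster embryos aged 0 to 24 hours, males and females pooled. All samples formed 1 group of 3 biological replicates from a transgenic line that stably expressed grau with GFP at its C-terminal end. The description in the labels gives an antibody to GFP for the precipitation, while their antibody field reads grau, so whether untagged Grauzone was also precipitated is not known here. The labels named neither the promoter that drove the fusion nor the state of the resident grau gene, and whole embryos mix all cell types over the collection, so levels are averages over them. A control experiment was named in the labels, but no list of control peaks was analysed here, so no value below has a control value beside it. There were 30000 peaks in the pooled list and in each replicate list. The 9624 reproducible peaks were the strongest of the pooled list by signal, so their values come without a spread. The labels call the replicates biological, so the spread below is that between these 3 samples.

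SMC proteins are long ATPases that pair to form rings or clamps around DNA. Cohesin holds sister chromatids together and shapes chromatin loops, condensin compacts chromosomes for division, and the Smc5/6 complex acts in DNA repair and replication. Early fly embryos draw on maternal stores of these proteins through rapid nuclear divisions. Grauzone itself is known as an activator of cort, whose product drives the anaphase-promoting complex during meiosis in the egg.

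Reproducible point sources lay within 500 bp of an annotated start of 5 of the 10 genes, against 32.0% of all protein-coding genes. The 5 genes were SMC6, SMC2, SMC5, SA and SMC1. In the gene body or within 5 kb of it, 7 of the 10 genes had a reproducible point source, against 63.7% of all protein-coding genes. The second share stood close to the background, and neither was tested. The first was not matched for gene arrangement. A protein-coding start on the other strand, pointing away, lay within 500 bp at 6 of the 10 genes, against 27.3% of all protein-coding genes. Of all protein-coding genes with such a neighbour 57.1% had a reproducible promoter source, against 22.6% of those without one.

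The DNA under the point sources differed between these genes in its repeats and base content. Each sequence below holds the point source and 50 bases on either side of it, read 5′ to 3′ along the strand of the SMC gene, taken from the dm6 genome. They are shown to compare the strongest site, at SMC6 (chr3R:24193559-24193659, minus strand), with those at SMC5 (chr3L:21569036-21569136, plus strand), SA (chr2L:6950287-6950387, plus strand) and SMC1 (chr3R:24058174-24058274, plus strand). The Nse1 window (chr2L:6677635-6677735, minus strand) was centred on a point source of the pooled list, and the vtd window (chr3L:27136393-27136493, plus strand) on one of replicate 3 alone. All 6 windows were intergenic. Capitals mark matches to any of 8 short motifs on either strand, which are spelled out with their shares after the values by gene.
SMC6: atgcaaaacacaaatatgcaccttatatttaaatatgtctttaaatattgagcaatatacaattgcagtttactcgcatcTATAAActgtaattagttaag
SMC5: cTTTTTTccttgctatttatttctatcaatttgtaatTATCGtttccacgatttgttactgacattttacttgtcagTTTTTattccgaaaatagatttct
SA: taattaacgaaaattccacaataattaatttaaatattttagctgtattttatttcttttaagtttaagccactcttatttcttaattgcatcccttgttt
SMC1: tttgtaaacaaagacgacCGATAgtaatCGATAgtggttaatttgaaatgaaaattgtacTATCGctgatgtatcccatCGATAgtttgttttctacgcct
Nse1: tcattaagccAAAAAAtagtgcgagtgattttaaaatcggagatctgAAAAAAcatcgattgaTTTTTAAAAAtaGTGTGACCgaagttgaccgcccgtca
vtd: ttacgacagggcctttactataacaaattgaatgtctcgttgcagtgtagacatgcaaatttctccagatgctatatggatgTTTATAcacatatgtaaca

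Among the reproducible point sources near the SMC genes, the one at SMC6 stood highest. SMC6 is a core ATPase of the Smc5/6 complex and lay at chr3R:24189050-24193423 on the minus strand. Its reproducible point source was 186 bp upstream of the start, in a peak 737 bp wide. It had the authors' signal of 9974 and rank 30 of 9624, and rank 15 of the 4130 reproducible point sources at promoters, where a promoter means within 500 bp of any start. That signal was 21.3 times the median at reproducible promoter point sources.

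The replicate lists held the SMC6 site at nearly the same base. Its rank was 33 in replicate 1, 39 in replicate 2 and 26 in replicate 3. After each signal was divided by the median of its list, which is called the scaled signal below, the site had 73.7 in replicate 1, 61.2 in replicate 2 and 99.5 in replicate 3. The mean was 78.1 ± 19.6 (SD, n = 3). The nearest point source of each replicate lay within 7 bp of the reproducible one. The start of CG6204 on the other strand lay 223 bp from the same point source, so the site cannot be assigned to SMC6 rather than to CG6204.

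The partner ATPase, SMC5, lay at chr3L:21569176-21573523 on the plus strand. Its reproducible point source was 90 bp upstream of the start, with a signal of 924 and rank 2154. The scaled signal was 5.56 in replicate 1, 4.90 in replicate 2 and 11.9 in replicate 3. The mean was 7.46 ± 3.87 (SD, n = 3). Replicate 3 was the highest and replicates 1 and 2 were close to each other. The replicate point sources lay 44, 85 and 39 bp from the reproducible one in replicates 1, 2 and 3, farther than at SMC6. In replicates 1 and 3 a second, weaker point source sat 6 and 4 bp from a start of SMC5, in its 5′ UTR. The start of CRIF on the other strand was 188 bp away.

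Nse1, a small non-SMC subunit of the same complex, lay at chr2L:6676649-6677625 on the minus strand and had no reproducible point source within 500 bp of its start. The pooled list had one 60 bp upstream with rank 11066, below the 9624 of the reproducible list. Replicate 1 had it 68 bp upstream with a scaled signal of 1.14, and replicate 2 had it 24 bp upstream with 1.96, while replicate 3 had none. The pooled list had such a source at 6 of the 10 genes, against 47.8% of all protein-coding genes. The 3′ UTR of Nse1 held a reproducible point source of rank 7107, which was 17 bp upstream of the start of cort and 973 bp from the start of Nse1. It was the one reproducible point source in the body of any of the 10 genes, so 1 of 10 gene bodies held one, against 18.5% of all protein-coding genes.

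That cort source, at the gene Grauzone is known to activate, had ranks of 7870 in replicate 1 and 7560 in replicate 2, with scaled signals of 2.09 and 2.16, and was absent from replicate 3. It ranked below all 5 reproducible promoter point sources of the SMC genes. A second reproducible point source in the Nse1 window, of rank 4401, lay 145 bp from a start of CG34310 and 472 bp from one of Spn27A, a serpin of the Toll pathway, within an intron of cup. All 3 replicates had it, at ranks 4576, 5219 and 3871 in replicates 1, 2 and 3. At grau itself the pooled list, the reproducible list and replicate 3 had none within 500 bp of the start, while replicate 1 had a point source of rank 3630 and replicate 2 one of rank 3715.

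Of the condensin ATPases, SMC2 had a reproducible promoter point source and its partner did not. SMC2 lay at chr2R:14848621-14852653 on the minus strand. Its source was 126 bp upstream of the start, with a signal of 1139.9 and rank 1662. The scaled signal was 6.10 in replicate 1, 6.90 in replicate 2 and 14.2 in replicate 3. The mean was 9.07 ± 4.48 (SD, n = 3). As at SMC5, replicate 3 was the highest by a wide margin. The 3 replicate point sources lay within 7 bp of the reproducible one. Ercc1, which encodes a subunit of a repair nuclease, had its start 162 bp away on the other strand. A stronger source in the same window, of rank 1450, was 107 bp from the start of HPS1 and 274 bp from that of Ciao1.

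The other condensin ATPase, encoded by glu (SMC4), lay at chr2L:16733617-16738388 on the minus strand. It had no point source within 500 bp of its start in any list, and the nearest reproducible one was 10490 bp away. Replicate 1 had 5 point sources in the window, replicate 2 had 1 and replicate 3 had 0. The highest of them, in replicate 1 at rank 4090, was 4863 bp upstream. It lay 151 bp from the start of LSm7 and 154 bp from that of BuGZ, which are on opposite strands. The other 2 replicates had no point source there within the window.

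In cohesin, SA and SMC1 had reproducible promoter point sources, and SMC3, vtd and Nipped-B did not. SA encodes the stromalin subunit and lay at chr2L:6950421-6954586 on the plus strand. Its source was 84 bp upstream, with a signal of 612 and rank 3454. The scaled signal was 4.52 in replicate 1, 4.54 in replicate 2 and 5.48 in replicate 3. The mean was 4.85 ± 0.551 (SD, n = 3). The 3 replicates were closer to each other at SA than at SMC2 or SMC5. Gas41, a gene for a YEATS-domain chromatin protein, had its start 130 bp away on the other strand.

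SMC1, one of the cohesin ATPases, lay at chr3R:24058287-24062815 on the plus strand. Its reproducible point source was 63 bp upstream, with a signal of 379.9 and rank 5552. The scaled signal was 3.17 in replicate 1 and 2.84 in replicate 2, and replicate 3 had no point source anywhere in the gene body or within 5 kb. Replicate 3 was empty over 17537 bp there, a stretch in which the pooled list had 8 point sources, replicate 1 had 9 and replicate 2 had 10. A window without any replicate 3 point source was thus found at 1 of the 5 SMC genes with a reproducible promoter source, against 34 of 4476, or 0.760%, of all protein-coding genes with one. That class was described from SMC1 itself, so the 1 was given in advance and the shares are not a test. A further reproducible point source in the window, of rank 7458, was 80 bp upstream of the start of Hsp68, a heat shock gene.

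SMC3, the other cohesin ATPase, lay at chrX:16588996-16593439 on the minus strand, with its start 238 bp from that of Ubc7 on the other strand. Replicate 1 had a point source 224 bp upstream of the SMC3 start with a scaled signal of 2.50 and rank 6535, and replicate 2 had one 225 bp upstream with 0.818 and rank 17572. These 2 sources were 14 and 13 bp upstream of the Ubc7 start, much closer to Ubc7 than to SMC3. Neither the pooled list nor replicate 3 had a point source at this promoter. A promoter with sources in replicates 1 and 2 and none in the pooled list was found at 1 of the 10 SMC genes, against 2.88% of all protein-coding genes. The class was described from SMC3 itself, so the 1 was given in advance and the shares are not a test. The one reproducible point source in the SMC3 window, of rank 5801, lay in an intron of CanA-14F, 7756 bp from the SMC3 start.

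The kleisin gene vtd, which encodes the Rad21 subunit that closes the cohesin ring, lay at chr3L:27136525-27157999 on the plus strand. Its start had a point source in replicate 3 alone, 82 bp upstream with a scaled signal of 3.68 and rank 5559. A second replicate 3 source was 823 bp upstream. Replicates 1 and 2 and the pooled list had none in the window, and the nearest reproducible point source was 4226444 bp from the start. A promoter source in replicate 3 and in no other list was found at 1 of the 10 genes, against 3.56% of all protein-coding genes. This class was described from vtd itself, so the 1 was given in advance and the shares are not a test.

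Nipped-B encodes the protein that loads cohesin onto chromatin and lay at chr2R:4691672-4729017 on the minus strand. None of the lists had a point source in its body or within 5 kb. The nearest reproducible one was 212506 bp from its start, and the nearest of replicate 3 was 15232 bp away. At 37346 bp Nipped-B was the longest of the 10 genes, and vtd followed at 21475 bp, so the 2 genes with the widest windows had the fewest point sources in replicates 1 and 2.

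**Figure D1:**
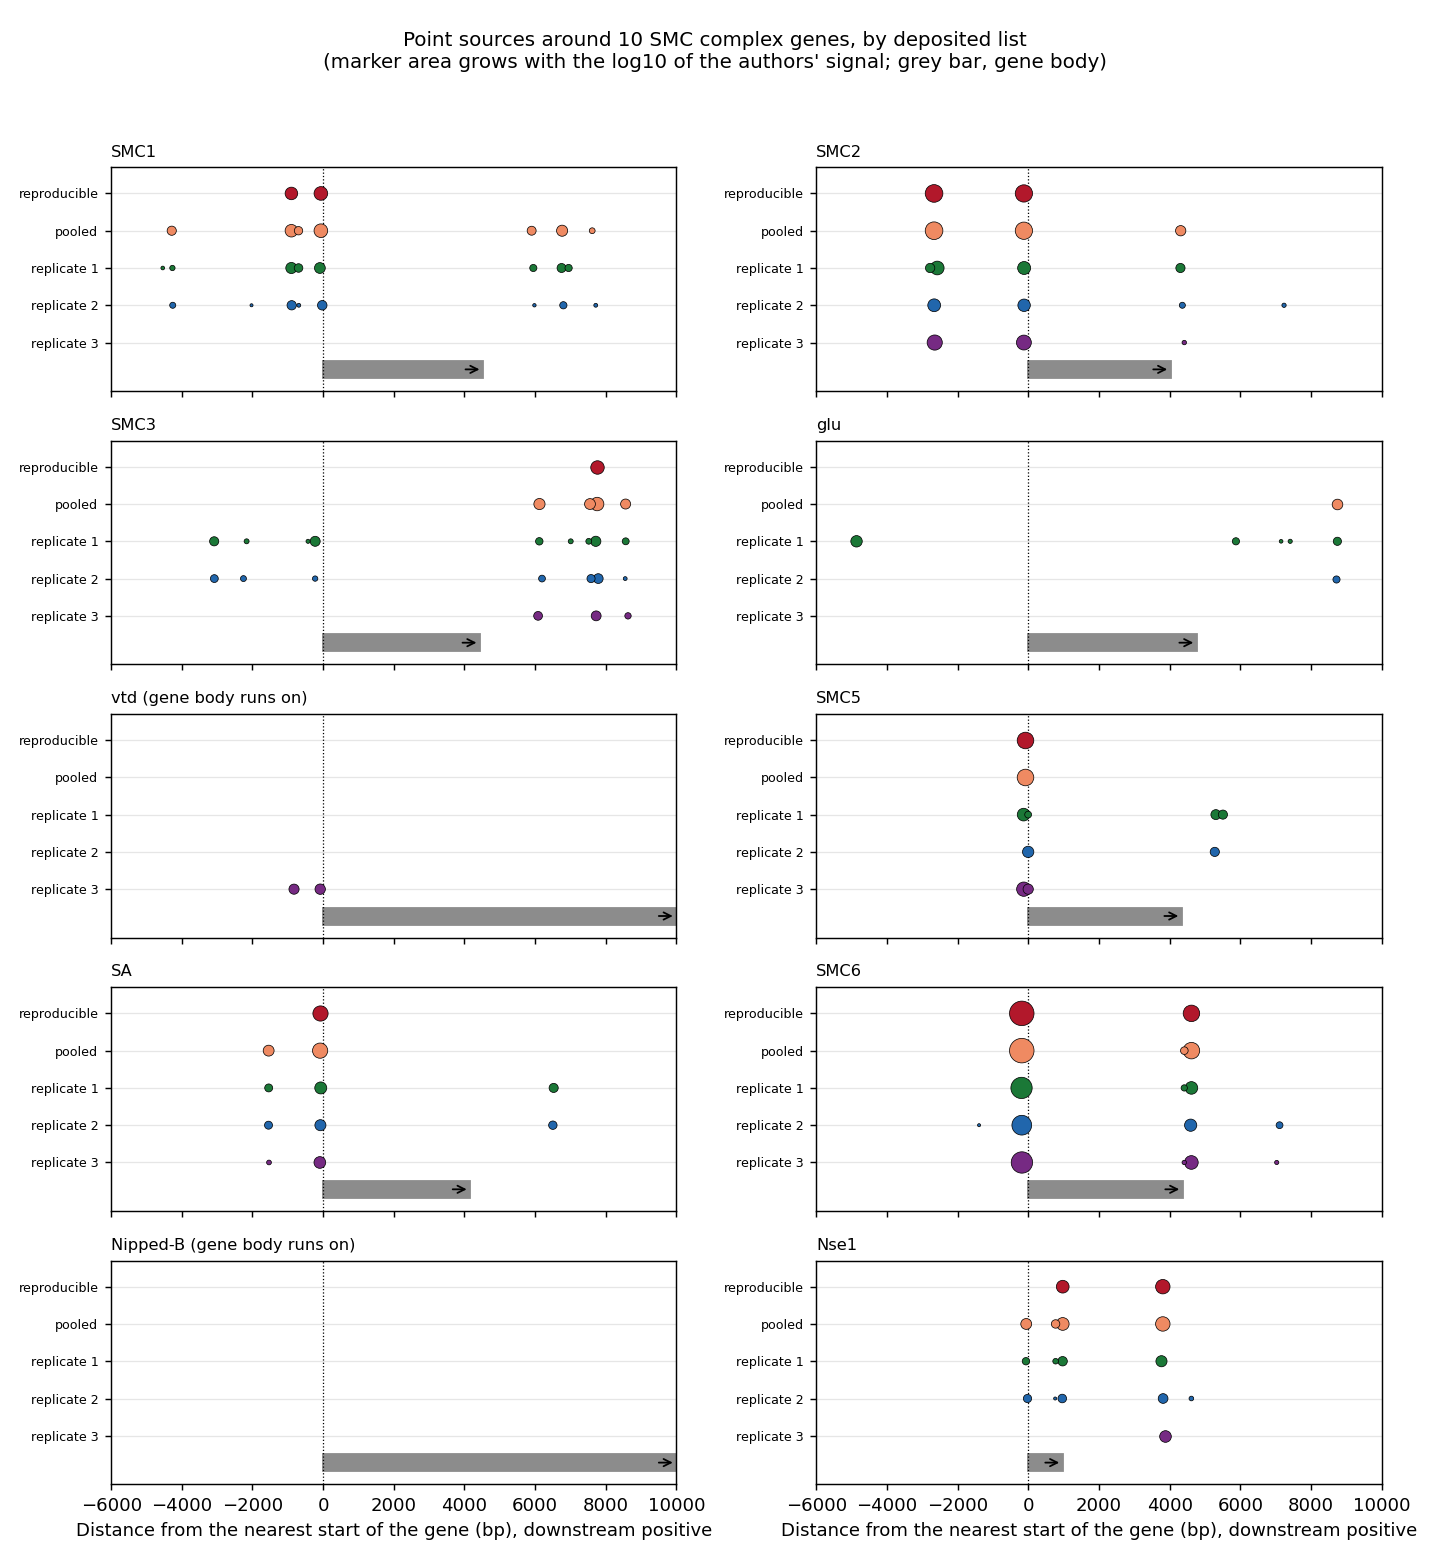
Point sources (dots) of 5 peak lists (rows) around the 10 SMC complex genes, by distance from the nearest start of the gene in bp, with downstream positive. Dot area grows with the log10 of the authors' signal and the grey bar is the gene body. The SMC6 panel shows the widest dots, 186 bp upstream in the reproducible list, while the Nipped-B panel is empty and the vtd panel has dots in replicate 3 alone.

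Counted over the 10 genes, the windows held 11 reproducible and 25 pooled point sources, and 40, 34 and 17 in replicates 1, 2 and 3. The share of genes with at least 1 pooled source in the window was 8 of 10, against 73.6% of all protein-coding genes. It was 8 of 10 against 75.1% in replicate 1, 8 of 10 against 76.9% in replicate 2, and 7 of 10 against 80.9% in replicate 3. Within 500 bp of a start, replicate 1 had a source at 7 of the 10 genes, against 50.7% of all protein-coding genes, and replicate 2 likewise at 7, against 51.5%. Replicate 3 had one at 5 of the 10, against 47.4%. The median density of reproducible point sources was 0.0701 per kb of window at the SMC genes and 0.0829 per kb at other protein-coding genes. The SMC genes were longer, with a median of 4409 bp against 2163.5 bp.

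Among the 5 genes with a reproducible promoter source, the order of the scaled signals was the same in each replicate that had both neighbours in it. SMC6 exceeded SMC2 by 7.0 to 12.1 times in 3 of 3 replicates. SMC2 exceeded SMC5 by 1.10 to 1.41 times and SMC5 exceeded SA by 1.08 to 2.17 times, each in 3 of 3. SA exceeded SMC1 by 1.42 to 1.60 times in the 2 replicates with both. The mean of SMC5 differed from those of SMC2 and SA by less than its own SD over the 3 replicates, so the order of these 3 genes rests on the comparison within each replicate. No permutation test was made, since there is 1 group.

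Replicate 3 was the highest at all 4 promoter sources that it shared with the other replicates. Its scaled signal over the geometric mean of replicates 1 and 2 was 1.48 at SMC6, 2.19 at SMC2, 2.28 at SMC5 and 1.21 at SA. Over all 3573 reproducible promoter point sources matched within 100 bp in all 3 lists, the median of this ratio was 1.31 and 63.4% were highest in replicate 3. Among those of ranks 1 to 2500, where SMC6, SMC2 and SMC5 fell, the median was 1.5, and 82.7% were highest in replicate 3. The tilt towards replicate 3 was therefore also seen across promoters in general.

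**Figure D2:**
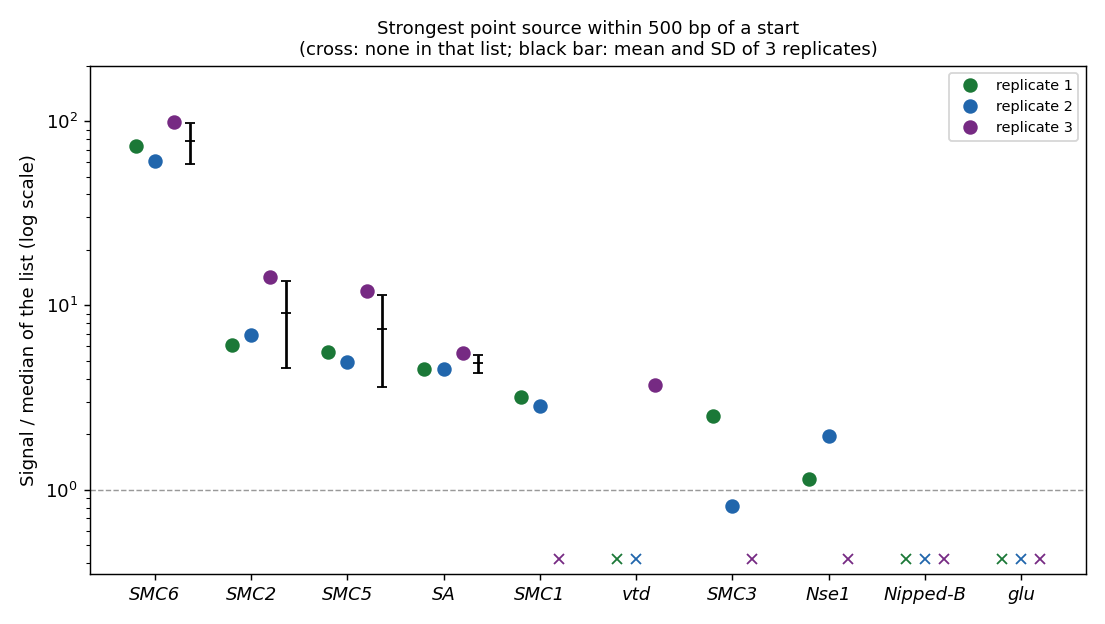
Scaled signal (signal divided by the median of its list, log scale) of the strongest point source within 500 bp of a start, for each of the 10 SMC complex genes and each replicate. Crosses mark lists with none, and black bars give the mean and SD of 3 replicates. SMC6, at 61.2 to 99.5, stands above the other genes in every replicate. Replicate 3 has no source at SMC1, SMC3 and Nse1, and no replicate has one at glu and Nipped-B.

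Matched in all 3 replicate lists within 100 bp, the reproducible promoter source was found at 4 of the 10 genes, against 28.6% of all protein-coding genes. Put per source, 4 of 5 at the SMC genes were matched in all 3, against 86.5% of all reproducible promoter point sources. Any point source within 500 bp of a start in all 3 replicate lists was seen at 4 of the 10 genes, against 39.5% of all protein-coding genes. No replicate had one at glu and Nipped-B, 2 of the 10 genes, against 40.1%. The 5 promoter sources had a median signal of 924, against 469 over all reproducible promoter point sources, and all 5 lay upstream of their start, at a median of -90 bp. For other protein-coding genes the median was -128 bp and 85.8% lay upstream.

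Most of these genes stood head to head with a neighbour. A protein-coding start on the other strand, pointing away, lay within 500 bp at 6 of the 10 genes, against 27.3% of all protein-coding genes. The pairs were SMC3 with Ubc7, SA with Gas41, SMC2 with Ercc1, glu with ChLD3, SMC5 with CRIF and SMC6 with CG6204, 214 to 462 bp apart. Among genes with such a neighbour, 4 of the 6 SMC genes had a reproducible promoter source, against 57.1% of all such genes. Among genes without one, it was 1 of 4, against 22.6%. That 1 was SMC1, and the 2 head-to-head genes with no such source were glu and SMC3. Where the promoter is shared, the data cannot say which of the 2 genes a point source belongs to.

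The reproducible point sources in the windows lay mostly at starts. Within 500 bp of any start were 10 of the 11, or 90.9%, against 4082 of 8937, or 45.7%, in the windows of other protein-coding genes. The remaining 1 was in an intron, a class that held 41.2% in the other windows. Of the 10, 5 were at a start of the SMC gene and 5 only at that of a neighbour, namely Hsp68, HPS1 with Ciao1, CG5515, CG34310 with Spn27A, and cort. Coding starts on both strands lay within 500 bp of 6 of the 11, or 54.5%, against 13.9% in the other windows. These shares count point sources that sit close together, were not matched for gene length or introns and were not tested.

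The surroundings of vtd and Nipped-B held few reproducible point sources. Within 250 kb on either side, vtd had 0 reproducible point sources and Nipped-B had 1. The other 8 genes had 27 at SMC5 to 74 at SMC1, against a mean of 36.2 for a stretch of that size on the 5 large chromosome arms. Replicate 3 had 8 point sources in that span at vtd and 16 at Nipped-B, where replicate 1 had 0 and 1 and replicate 2 had 0 and 4. Of the other protein-coding genes in the span, 0 of 3 at vtd and 1 of 11 at Nipped-B had a reproducible promoter source. At SMC3, SA, SMC2, glu and SMC5 the share was 21.5% to 25.8%, at Nse1 42.5%, at SMC6 46.7% and at SMC1 64.6%, against 32.0% of all protein-coding genes. The genes vtd and Nipped-B lie near the centromeric ends of their arms, in regions known as heterochromatin, and the part of this position in the counts was not tested.

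The base content under the reproducible promoter sources was low in G and C. In the windows of 50 bp on either side, whose sequences are shown above for 4 of the 5 genes, it was 25.7% at SMC6, 21.8% at SMC2 and at SA, 26.7% at SMC5 and 34.7% at SMC1. The median of the 5 was 25.7%, against 32.7% over all reproducible promoter windows and 43.6% in windows 500 bp from reproducible point sources. Windows below 25.7% made up 20.7% of all reproducible promoter windows. These comparisons, and those of the runs below, were not matched for rank. Among the other promoter windows plotted by rank, G and C content tended by eye to be lower at stronger sources. No statistic was computed for this trend. SMC6, SMC2, SMC5 and SA had ranks 30, 1662, 2154 and 3454 in the reproducible list. Whether the SMC genes differ in base content from promoter sources of like rank was not tested. The longest run of A and T alone was 22 bp at SA, 14 at SMC6, 11 at SMC2, 9 at SMC5 and 7 at SMC1, a median of 11, against 10 over promoter windows and 7 in the distant windows. SMC1, the weakest of the 5 sources, had the most G and C and the shortest such run.

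**Figure D3:**
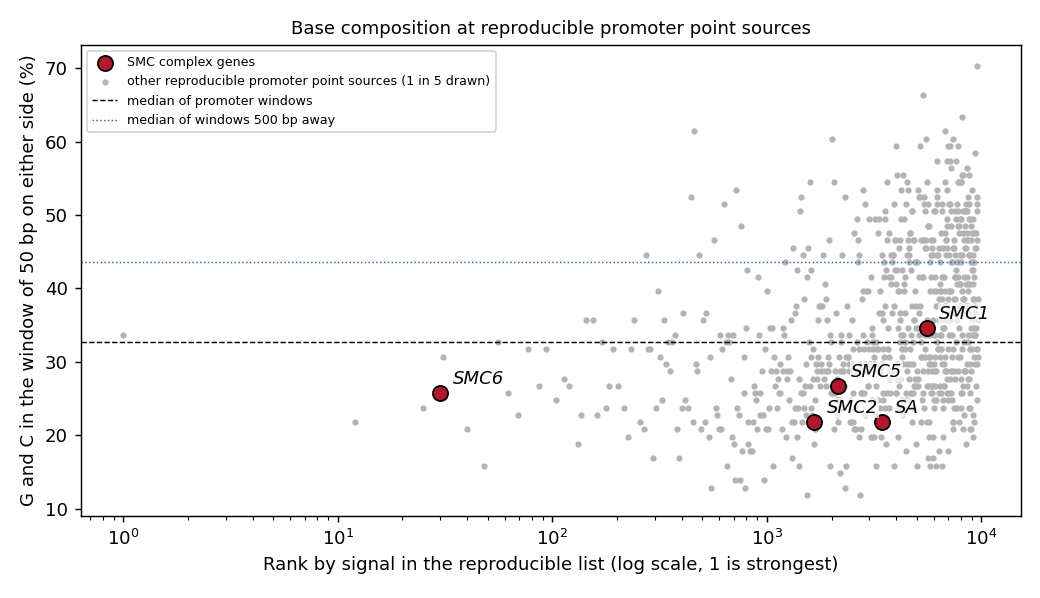
Share of G and C (%) in the window of 50 bp on either side of reproducible promoter point sources, by rank in the reproducible list (log scale, 1 strongest). Red dots are the 5 SMC complex genes, grey dots are 1 in 5 of the others, and lines are the medians of promoter windows (32.7%) and of windows 500 bp away (43.6%). SMC6, SMC2, SMC5 and SA lie below both lines, which are medians over all ranks, and SMC1, at 34.7%, lies between them.

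The searched motifs are given by gene, beside their share of reproducible promoter windows. The windows at these genes were too few for a count or an absence to be read as a difference from that share. At SMC1 the window held 4 copies of CGATA, the letters bound by the boundary protein BEAF-32. At least 4 copies were held by 43 reproducible promoter windows, or 1.04%, and at least 1 by 21.6% of them and 11.3% of windows 500 bp away. The cut of 4 is the count at SMC1 itself, so the 1.04% is a description only. CGATA lies within TATCGATA, the DNA replication-related element (DRE), which was in none of the SMC windows, against 3.58% of promoter windows. SMC5 had 1 CGATA, and the replicate 1 window at SMC3 had 2.

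TATAAA, the TATA box letters, matched once at SMC6 and once at the replicate 3 source of vtd, against 22.5% of promoter windows. A run of AAAAA matched at SMC2 (1 copy), SMC5 (3 overlapping or separate copies) and the pooled source of Nse1 (6 copies), against 56.9% of promoter windows. The Nse1 window also held GGTCACAC, a motif bound by M1BP, against 2.28% of promoter windows. SA had no match to any of the 8. GAGAG (9.18% of promoter windows), CAGGTAG (the Zelda site, 0.436%) and CAGCTG (an E-box, 4.48%) were in none of the windows at these genes. All motifs were read on both strands. The promoter windows in these shares are those of the reproducible list. The windows at Nse1, vtd and SMC3 come from other lists, so for them the shares are not a like comparison.

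None of the windows at the SMC genes held CACTGTAC, which had the highest ratio of its share at reproducible point sources to its share 500 bp away among 8-base words in at least 2% of reproducible windows. It was in 2.10% of all reproducible windows and 0.291% of windows 500 bp away. The SMC windows also lacked the next of these words, AATATATT, which was in 3.15% of reproducible windows and 0.675% of the distant ones. The Nse1 window held the one after it, TTTTAAAA, found in 3.57% of reproducible windows and 0.810% of the distant ones. Most reproducible windows lacked CACTGTAC and AATATATT, so their absence does not mark out the SMC windows. A match is a description of letters and not of a bound site.

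The wider SMC pathway was read from a list of 27 other genes. A reproducible promoter source lay at 12 of the 27, or 44.4%, again against 32.0% of all protein-coding genes, and at 17 of 37 with the 10 SMC genes included. By role it was 3 of 5 other condensin subunits, 4 of 7 cohesin regulators, 2 of 5 meiotic cohesin genes, 1 of 3 of the separase module, 0 of 4 other Smc5/6 subunits and 2 of 3 of the Rad50 complex. All 3 replicates had a promoter source at 19 of the 27, against 39.5% of all protein-coding genes, and none had one at 5, against 40.1%. SMC6 and SMC5 thus had reproducible sources, while Nse1 and the 4 other subunits of their complex on the list, Nse4, MAGE, qjt and cerv, did not. Weaker promoter sources were listed for MAGE and cerv in all 3 replicates and for Nse4 in replicate 1 alone, while qjt had none. The split within the complex was not tested.

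Among the 27, pds5, a cohesin-associated regulator, stood highest, at rank 394, 169 bp upstream of the start. Its scaled signal was 20.1, 21.8 and 33.6 in replicates 1, 2 and 3, a mean of 25.2 ± 7.35 (SD, n = 3), below SMC6 and above SMC2 in every replicate. Then came Cap-H2, the condensin II kleisin, at rank 1951 and nbs, of the Rad50 complex, at rank 2313. They were followed by mei-S332, a shugoshin that protects centromeric cohesin, at rank 2542, Cap-D2 of condensin at rank 2955, solo of meiotic cohesion at rank 3080, Mau2, the partner of Nipped-B in loading, at rank 3233 and barr, the condensin I kleisin, at rank 3796. Each of these 8 sources also lay within 500 bp of a start of another gene, such as Mppe at pds5, Bub3 at Cap-D2, vas at solo and lok at barr. Mau2 had scaled signals of 4.28, 4.36 and 6.79 in replicates 1, 2 and 3, while its partner Nipped-B had no point source in any list.

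**Figure D4:**
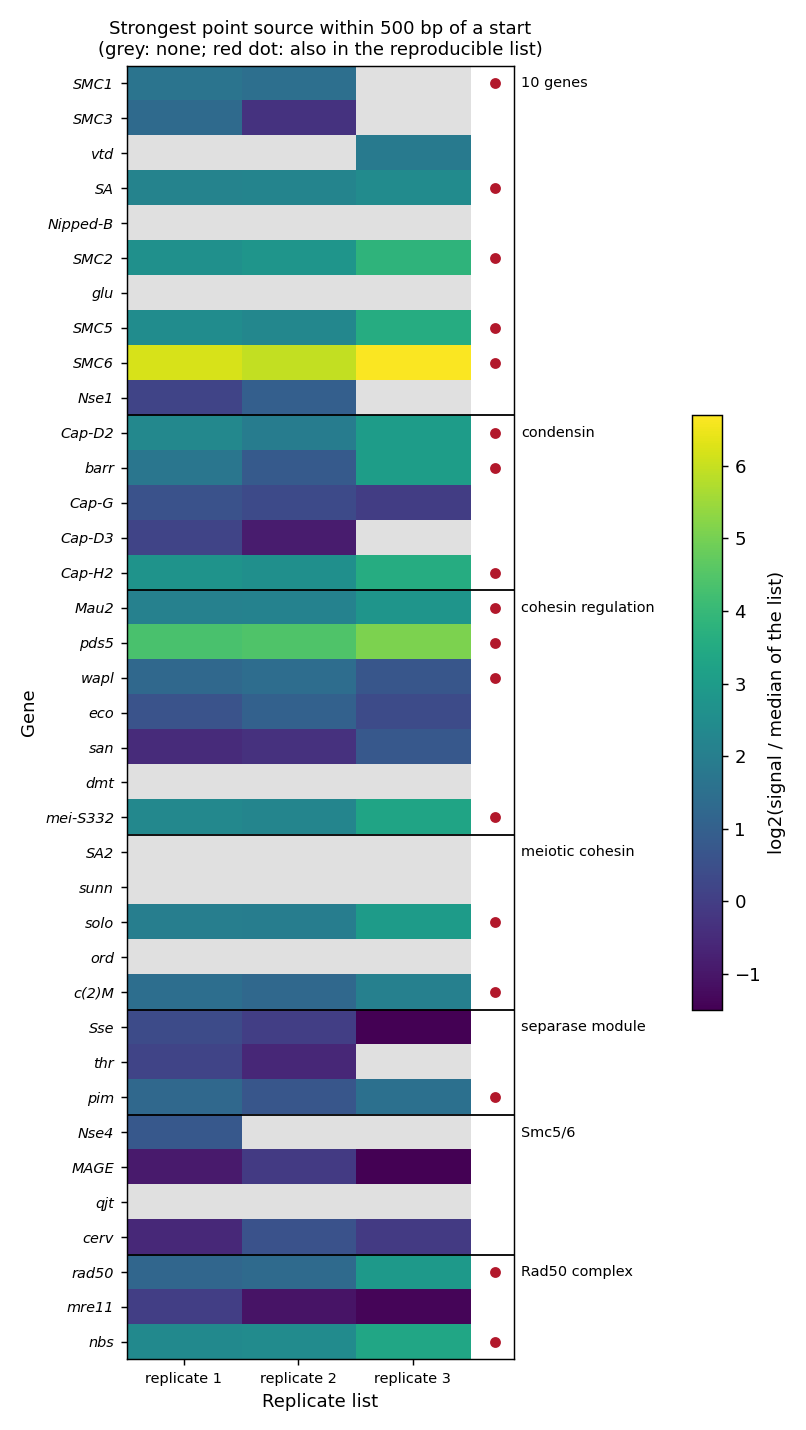
Log2 of the scaled signal of the strongest point source within 500 bp of a start, for the 10 SMC complex genes (top) and 27 other pathway genes grouped by role (rows), in the 3 replicate lists (columns). Grey cells mark no source and red dots mark genes with one in the reproducible list. SMC6 and pds5 show the highest values. None of the 4 other Smc5/6 genes has a red dot, though MAGE and cerv have a source in all 3 replicate lists.

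Over the 3 replicates, the promoter sources most like those of the SMC genes were found by the Euclidean distance of log2 scaled signals. For SMC6 they were the rank 28 source at the mod(mdg4) locus (distance 0.18), with 69.5, 58.9 and 110.3 in replicates 1, 2 and 3, and the rank 26 source at Pyroxd1 and CG10747 (0.18). For SMC2 they were those at CG42674 (0.04) and at coro (0.08), of ranks 1684 and 1688. For SMC5 they were those at chif (0.06) and at Fibp and Deaf1 (0.12), of ranks 2172 and 2038. With 3 values per source, these are the nearest of 3573 matched sources, many of them of similar rank.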

How the data were processed

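GFP-tagged Grauzone was measured by ChIP-seq in 3 biological replicates of whole embryos in 1 group. The authors deposited a peak list per replicate, a list from pooled alignments with a control alignment and a list thresholded by irreproducible discovery rate, per the file headers and labels, with DNA fragments of 200 to 800 bp. The aligner is not given in the sources used here, nor are the peak caller and the threshold. Each deposited peak has a signal, whose scale is not stated, a −log10 q-value and the distance of its point source from the peak start. All reproducible peaks shared 1 q-value, so peaks were ranked by signal. Read depth was not used here, so counting error is unknown.

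Starts came from Ensembl release 115 and sequences from the RefSeq dm6 genome, whose arms held every peak. Transposable elements and pseudogenes were left out. Signals were compared within a list or after division by the list median. Point sources within 100 bp matched. No test was made, since there is 1 group. Motifs were searched within 50 bp of a point source. The SMC genes and lists were chosen with earlier results of these data known. The named genes were the 10 SMC genes, genes sharing their promoter sources, cort, grau, the 8 other pathway genes with the highest promoter source and, for each of the 3 highest SMC genes, the 2 most similar promoter sources. Neighbours in the windows were named after their values were seen. The symbols Sle1 and Sle2 were not matched, jnj is a RefSeq synonym of SMC6 and was not counted again, and SA-2 and SNM both matched SA2. Python 3.11.15, numpy 2.4.6 and matplotlib 3.10.9 were used, and the functions were tested on simulated data. Alternatives were the promoter distance, the window, stricter and wider lists, the matching distance, the scaling and leaving out each replicate.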

Additional observations from a re-analysis of the deposited data

How the results depend on the processing

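Of 63 values recomputed under alternatives, 10 moved and 53 did not, where a count or share moved if it changed by over 1.5 times and a scaled signal if it changed by over 1 SD. With the gene body alone, 1 of the 10 SMC genes had a reproducible point source instead of 7, and 1 source was counted instead of 11. In the strongest 4812 peaks of the reproducible list the windows held 7 sources, and 19.1% of all protein-coding genes had a promoter source instead of 32.0%. In the whole pooled list the windows held 25. Scaling by the median of peaks matched in all 3 lists, a larger divisor by construction, gave 20.4 for SMC6, 2.32 for SMC2, 1.90 for SMC5, 1.28 for SA and 0.866 for SMC1, in the same order. Leaving out each replicate in turn, with sources matched in both others, gave 4 to 5 SMC genes with a promoter source (5 without replicate 3, which lacks the SMC1 source), 6 to 7 with one in the window, 8 to 11 sources, 4 to 5 matched promoter sources and 29.2% to 30.2% of all protein-coding genes. The reproducible list, which derives from all 3 replicates, stayed the same in each case, so no source outside it could be counted. No paired analysis was possible because the samples form 1 group.

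The lists give no read depth and the signal no stated scale, so a missing point source means that none was listed, not that Grauzone was absent. Each replicate list ends at 30000 peaks, so weak sources near the end of a list can be missed. With 3 replicates and no control list, SDs describe these samples. Shared promoters leave the gene behind a source undecided.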

Other observations

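Some places were strong in replicates 1 and 2 yet absent from the pooled list, as at grau. Of 7614 sources shared by the 9624 strongest of replicates 1 and 2, 239, or 3.14%, had no pooled point source within 100 bp, and 170 of these had none in replicate 3 either. Near SMC5, replicates 1 and 2 had a source at the start of EMC10, of ranks 6649 and 6215, while neither the pooled list nor replicate 3 had one in that window. Between the SA source and the next reproducible one, 13887 bp apart, replicates 1 and 2 had 2 and 3 point sources and the pooled list and replicate 3 had 0. The cause was not tested.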
